A study of Mus musculus with 15 samples.

Results

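Aquaporins are membrane channels that pass water, and some of them also pass glycerol, ammonia, urea or hydrogen peroxide. The genes described are Aqp8 and 6 relatives measured beside it in mouse liver, Aqp9, Aqp7, Aqp3, Aqp1, Aqp4 and Aqp11, which are 7 of 22180 genes on the arrays with a single gene symbol. They were picked by symbol, with 1 transcript cluster (the array's probe set for a gene) per gene, and were selected with their measured differences between the groups known. Their values are therefore a description. Where it is said that a member passed the threshold used for all genes, that too is a description and supports nothing. In 15 livers, Aqp8 was highest after a sham operation with free feeding, lower after gastric bypass, and lowest in sham-operated mice held to the weight of the bypass mice. The other 6 members had smaller differences, and their arrays overlapped between every pair of groups.

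All 15 mice were males of the ApoE*3Leiden.CETP line (apoE3L.CETP in the labels), which carries human ApoE*3-Leiden and CETP transgenes that make its lipoprotein metabolism more like the human one. Which promoters drive these transgenes is not stated in the labels. The labels give an age of 9 to 12 weeks. Every group, controls included, had eaten a diet of 60% fat and 0.25% cholesterol for 6 weeks when it was operated on, and every liver was taken 20 days after the operation. RYGB stands for Roux-en-Y gastric bypass, an operation that shrinks the stomach to a pouch and joins it to the jejunum (6 mice). Sham AL mice had a sham operation and ate ad libitum (5 mice), and BWm mice had a sham operation and were matched in body weight to the RYGB mice (4 mice). Setting RYGB against BWm asks which differences accompany the bypass at a matched weight, and RYGB against Sham AL asks about the bypass together with its weight loss. BWm against Sham AL, which the design also allows, sets restricted against free feeding without a bypass. The 3 comparisons share arrays, so they are not independent of each other.

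Each liver was measured on 1 GeneChip Mouse Gene 2.0 ST array, and values are log2 signals after the robust multi-array average (RMA), so that a difference of 1 is a 2-fold difference in signal. Array medians lay between 3.89 and 4.02, and arrays correlated with each other at r of 0.967 to 0.991 over genes. The number of arrays limits the precision, with a median standard error (SE) of 0.127, 0.135 and 0.140 log2 units in the 3 comparisons as named above, with BWm against Sham AL last. The labels call the arrays biological replicates, 1 per mouse. The log2 of the summed linear signals of 9 hepatocyte markers lay between 15.1 and 15.24 on every array. Of the 9, 0 passed the threshold of the test across all genes (limma, Benjamini-Hochberg adjusted p under 0.05) in any comparison. The arrays thus carry the defining transcripts of the labelled tissue.

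The array of Sham AL replicate 4 stood apart. On it, 662 genes were more than 1 log2 unit away from the mean of the group's remaining 4 arrays. Ucp1, which makes brown fat produce heat, read 11.89 there against 3.87 ± 0.47 (SD, n = 4), and Cyp11b1, an enzyme of the adrenal cortex, read 10.37 against 2.87 ± 0.32 (SD, n = 4). The summed level of 9 white adipocyte markers reached 12.19 on this array, while the RYGB arrays lay between 9.68 and 10.11 and the BWm arrays between 9.46 and 9.87. The other 4 Sham AL arrays lay between 9.82 and 10.58, with 3 of them above all RYGB and BWm arrays. As a mean of log2 values these markers read 5.21 to 5.52 on those 4, above every RYGB array (up to 5.02) and every BWm array (up to 5.00). These marker genes were chosen for naming after their values were seen. The array was kept, and every member's differences from Sham AL are given with and without it.

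The liver uses its aquaporins at several places. AQP8 sits in hepatocytes, in vesicles and at the canalicular membrane, where it carries water into bile, and in the inner mitochondrial membrane, where it also passes ammonia and hydrogen peroxide. AQP9 is the glycerol channel of the sinusoidal membrane of hepatocytes, through which glycerol released by fat enters the cell for glucose and triglyceride synthesis, and AQP7 is its counterpart in fat cells. AQP3 is another glycerol channel, best known from skin and the kidney. AQP1 is the water channel of endothelium, red cells and bile duct cells, AQP4 the main water channel of astrocytes, and AQP11 an intracellular aquaporin of the endoplasmic reticulum.

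Aqp8 and Aqp9 are both hepatocyte channels, and of the members only Aqp8 had pairs of groups whose arrays did not overlap. The sequences just before the start sites of both genes are shown. They are the 250 bases upstream of each start site from RefSeq (GRCm38.p6), 5′ to 3′ on the gene's strand, with matches to the motifs searched in capitals. The Aqp8 window is chr7:123462044-123462293 on the plus strand, the window of the first Aqp9 start is chr9:71163290-71163539 on the minus strand, and that of the second Aqp9 start is chr9:71162634-71162883 on the minus strand.
Aqp8: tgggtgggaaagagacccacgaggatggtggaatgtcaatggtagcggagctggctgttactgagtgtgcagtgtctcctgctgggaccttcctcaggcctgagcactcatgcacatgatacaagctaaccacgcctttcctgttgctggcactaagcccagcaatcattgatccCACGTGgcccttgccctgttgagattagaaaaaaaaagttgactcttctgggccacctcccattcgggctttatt
Aqp9 start 1: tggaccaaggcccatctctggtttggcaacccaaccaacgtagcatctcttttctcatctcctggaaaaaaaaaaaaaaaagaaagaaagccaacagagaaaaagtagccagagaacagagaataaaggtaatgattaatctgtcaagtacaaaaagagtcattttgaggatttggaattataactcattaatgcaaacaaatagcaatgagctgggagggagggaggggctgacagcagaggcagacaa
Aqp9 start 2: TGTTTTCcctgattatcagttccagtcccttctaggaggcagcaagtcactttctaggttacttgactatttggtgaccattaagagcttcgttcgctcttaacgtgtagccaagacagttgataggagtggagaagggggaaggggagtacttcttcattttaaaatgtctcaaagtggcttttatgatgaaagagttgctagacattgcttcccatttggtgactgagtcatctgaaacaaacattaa

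Letters of 5 motifs were searched on both strands, and these motifs were chosen after the sequences were seen. The TATA box was read as TATAAA. The E-box was read as CACGTG, and the core of nuclear receptor sites as AGGTCA. For the core of an insulin response element the letters were TGTTTTC, and for the forkhead core they were TGTTTAC (3.17% of windows). The Aqp8 window held 1 of the 5, a CACGTG whose first base lies 75 bases before the start, which 6.02% of 32851 mouse promoter windows of the same length also hold. The window of the first Aqp9 start held 0 of the 5, and that of the second held TGTTTTC at its far end, 250 bases before the start, which 6.33% of windows hold. GC content was 52.4% in the Aqp8 window against 40.4% and 41.6% in the Aqp9 windows. Windows were searched for 6 of the 7 members, all but Aqp4. Among the others, the Aqp3 window held TATAAA 29 bases before the start (12.4% of windows), the Aqp11 window and both Aqp7 windows, which overlap each other, held AGGTCA (14.0% of windows), and the Aqp1 window held 0 of the 5. A match describes the letters and not a bound site.

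Aqp8 was the member with the widest range between groups. The 5 Sham AL livers read 7.25, 7.48, 7.34, 6.65 and 7.29 in replicate order. The 4 BWm livers read 5.66, 4.93, 4.99 and 5.59, and the 6 RYGB livers ran from 6.13 to 6.86 with a median of 6.60. All BWm livers were below all RYGB and all Sham AL livers, with a gap of 0.47 to the lowest RYGB liver and of 0.99 to the lowest Sham AL liver. RYGB and Sham AL touched through the Sham AL replicate 4 array, whose 6.65 fell inside the RYGB range, while the other 4 Sham AL livers were above all RYGB livers.

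In group means, Aqp8 was 7.20 ± 0.32 in Sham AL (SD, n = 5), 6.56 ± 0.25 in RYGB (SD, n = 6) and 5.29 ± 0.39 in BWm (SD, n = 4). BWm was lower than Sham AL by 1.91 ± 0.19 log2 units (difference ± SE of the limma fit), which is 3.76-fold with a 95% interval of 2.85 to 4.95. This was the 17th largest difference of 22180 genes by size and the 8th largest among the lower ones. RYGB was 2.42-fold above BWm, a log2 difference of 1.27 ± 0.18 (95% interval 0.89 to 1.66), which ranked 102nd by size. RYGB against Sham AL gave a log2 difference of -0.64 ± 0.17 (95% interval -0.997 to -0.279), or 1.56-fold lower in RYGB, which ranked 386th. That difference was not past the threshold (limma, Benjamini-Hochberg adjusted p = 0.0786). On the log2 scale the RYGB mean thus lay 66.6% of the way from BWm up to Sham AL.

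Without the Sham AL replicate 4 array, the Sham AL mean of Aqp8 was 7.34 ± 0.098 (SD, n = 4). RYGB then differed from Sham AL by -0.78 ± 0.16 and BWm from Sham AL by -2.05 ± 0.17, and the RYGB mean lay 62.1% of the way from BWm to Sham AL. The animal numbers in the labels fall below 50 for 3 RYGB and 1 Sham AL mice and above 50 for all others, and their meaning is not stated. Within the animals numbered above 50 (3 RYGB, 4 Sham AL and 4 BWm), RYGB minus Sham AL was -0.61, RYGB minus BWm was 1.29 and BWm minus Sham AL was -1.90. No liver numbered below 50 was BWm, so the lower set holds no BWm value.

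Aqp8 is also known from the pancreas and the intestine, whose markers are given beside its values. The summed level of 8 pancreatic acinar markers ran from 6.03 to 6.43 in RYGB, 6.28 to 6.48 in Sham AL and 6.08 to 6.41 in BWm. Of these markers, 0 of 8 passed the threshold in any comparison. The sum of 10 intestinal epithelium markers ran from 8.06 to 8.98 in RYGB, 9.19 to 9.92 in Sham AL and 9.25 to 9.39 in BWm. As means of log2 values the same markers ran from 4.02 to 4.37 in RYGB, 4.17 to 4.47 in Sham AL and 4.5 to 4.86 in BWm, so on that scale every BWm liver was above every Sham AL liver. The markers did not move as a set. Fabp2 passed the threshold in RYGB against Sham AL (-1.37), Car1 and Lgals4 in RYGB against BWm (-1.85 and -1.15), and Lgals4 in BWm against Sham AL (1.32). In that last comparison Fabp2 differed by -0.91 and Car1 by 1.225, not past the threshold. The rest of the list passed in no comparison. The part of intestinal RNA in the Aqp8 values was not tested. Periportal hepatocyte markers summed to 13.77 to 14.20 in RYGB, 13.94 to 14.20 in Sham AL and 14.20 to 14.32 in BWm. As means of log2 values they overlapped, at 9.57 to 10.14, 9.59 to 9.98 and 9.77 to 10.05. Those past the threshold went both ways. In RYGB against BWm they were Cdh1 (0.86), Aldh1b1 (0.69) and Pck1 (-0.50), and in BWm against Sham AL Pck1 (0.59). Pericentral markers summed to 13.75 to 13.95, 13.81 to 14.09 and 13.80 to 13.98 in the same order of groups. Among them Gstm3 passed the threshold in RYGB against BWm (1.675), where the median difference of the list was -0.165. Gstm3 differed by 0.797 in RYGB against Sham AL and by -0.878 in BWm against Sham AL, not past the threshold. The other pericentral markers passed in no comparison. In bulk liver, fewer cells of a type and less RNA per cell cannot be told apart, and the part of the liver zones in the Aqp8 values was not tested.

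**Figure D1:**
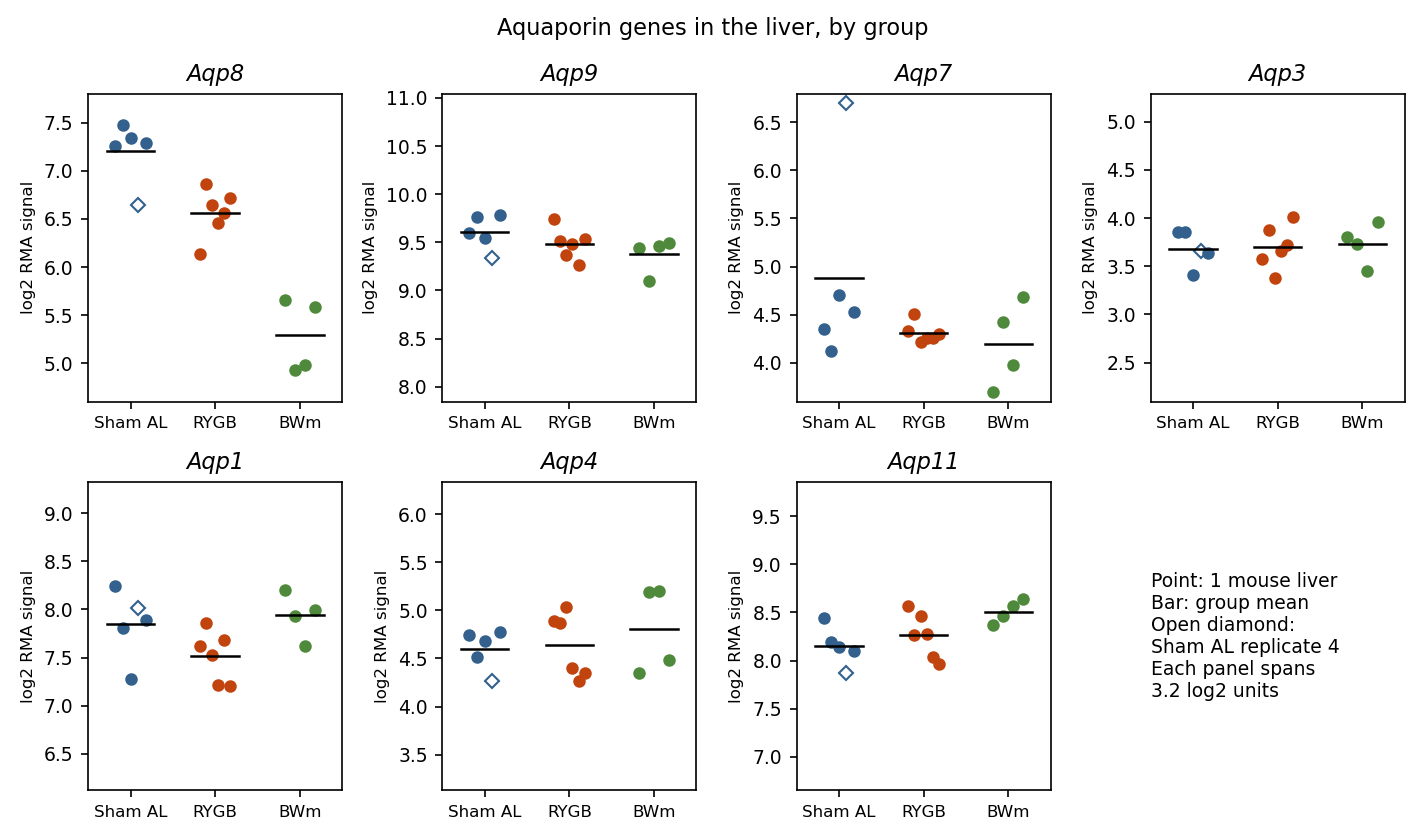
Log2 RMA signal (vertical axis, arbitrary fluorescence units on a log2 scale) of the 7 members in Sham AL, RYGB and BWm livers (horizontal axis), 1 point per mouse, with bars at group means and the Sham AL replicate 4 array as an open diamond. Each panel spans the same width in log2 units; in the Aqp8 panel the BWm livers (4.93 to 5.66) lie below all others, while the groups of the other 6 genes overlap.

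Aqp9, the hepatocyte glycerol channel, varied little. RYGB livers ran from 9.26 to 9.75 with a median of 9.5. Sham AL livers read 9.59, 9.76, 9.54, 9.34 and 9.79, and BWm livers 9.44, 9.10, 9.46 and 9.5. The ranges overlapped in every pair of groups, although 4 of 5 Sham AL livers were above all BWm livers. BWm minus Sham AL was -0.23 ± 0.13 (95% interval -0.49 to 0.03), or -0.30 without the Sham AL replicate 4 array. RYGB minus Sham AL was -0.12 ± 0.11 (95% interval -0.36 to 0.12), or -0.19 without that array, and RYGB minus BWm was 0.11 ± 0.12 (95% interval -0.14 to 0.36). These intervals leave room for differences of up to about 1.41-fold (BWm below Sham AL), well short of the 3.76-fold of Aqp8. The SD of Aqp9 within groups, 0.176, was smaller than that of most genes, at the 29.0th percentile, while Aqp8's 0.313 was at the 85.7th.

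Aqp7, the glycerol channel of fat cells, was high on 1 array. The Sham AL livers read 4.35, 4.13, 4.70, 6.70 and 4.52, where 6.70 is replicate 4. BWm livers read 3.69, 4.43, 3.98 and 4.68, and RYGB livers ran from 4.22 to 4.5 with a median of 4.28. Apart from replicate 4, the highest reading of Aqp7 was 4.70, and the groups overlapped. The same array carried the high fat and adrenal transcripts described above, among them Adipoq, a hormone of fat cells, at 5.58 against 2.18 ± 0.26 on the other Sham AL arrays (SD, n = 4), and the part of these tissues in the Aqp7 value was not tested. BWm minus Sham AL was -0.69 ± 0.36 with this array and -0.23 ± 0.18 without it, and RYGB minus Sham AL was -0.57 ± 0.33 with it and -0.11 ± 0.16 without it. RYGB minus BWm was 0.12 ± 0.35 (95% interval -0.62 to 0.85). The SD of Aqp7 within groups was 0.643, at the 99.1st percentile of all genes, and without that array 0.274, at the 80.2nd percentile. The white adipocyte markers were also higher on the remaining Sham AL arrays than in the other groups as means of log2 values. That gap was uneven between the markers. Without replicate 4, RYGB minus Sham AL was -2.25 for Cidec, -0.59 for Fabp4 and -0.48 for Retn, but -0.08 for Adipoq and for Plin1. BWm minus Sham AL was then -2.025 for Cidec, -0.89 for Fabp4, -0.46 for Cd36 and -0.32 for Lep. It was -0.15 for Retn, -0.095 for Adipoq and -0.13 for Plin1. The part of fat cells in the Aqp7 values there was not tested.

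Aqp3 showed the smallest differences of the 7 in each comparison. RYGB livers ran from 3.38 to 4.01 with a median of 3.69, Sham AL livers read 3.85, 3.86, 3.41, 3.66 and 3.64, and BWm livers 3.8, 3.73, 3.45 and 3.96. No group stood apart. RYGB minus Sham AL was 0.02 ± 0.13 (95% interval -0.25 to 0.28), RYGB minus BWm -0.03 ± 0.13 (-0.31 to 0.25) and BWm minus Sham AL was 0.05 ± 0.14 (-0.24 to 0.34). Without the Sham AL replicate 4 array the differences from Sham AL were 0.013 for RYGB and 0.045 for BWm. The mean of Aqp3 over all arrays, 3.70, lay below every array's median signal. Signal over background was not measured, so whether the probes saw Aqp3 RNA is not known.

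Aqp1, the water channel of endothelium and bile ducts, was lower in RYGB than in BWm on average, with overlap. RYGB livers ran from 7.20 to 7.86 with a median of 7.57, and BWm livers read 8.20, 7.93, 7.63 and 7.99. Of the RYGB livers, 4 of 6 were below all BWm livers, and of the BWm livers, 3 of 4 were above all RYGB livers. RYGB minus BWm was -0.42 ± 0.17 (95% interval -0.78 to -0.06). That difference was not past the threshold (limma, Benjamini-Hochberg adjusted p = 0.189). Sham AL livers read 8.24, 7.80, 7.27, 8.01 and 7.89 and overlapped both, with RYGB minus Sham AL at -0.33 ± 0.16 (95% interval -0.67 to 0.01) and BWm minus Sham AL at 0.09 ± 0.18 (95% interval -0.29 to 0.47). The last difference was -0.05 without Sham AL replicate 3, which had the lowest Sham AL value. Leaving out Sham AL replicate 4 gave 0.13 for that difference and -0.285 for RYGB minus Sham AL. With animal number as a block RYGB minus BWm was -0.605, where Aqp1 was past the threshold, and within the livers numbered above 50 it was -0.571. RYGB livers numbered below 50 read 7.53 to 7.86 and those above 50 read 7.20 to 7.68.

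Markers of cells that carry AQP1 are given beside these values. The summed level of 10 sinusoidal endothelial markers ran from 10.79 to 11.32 in RYGB, from 10.99 to 11.39 in Sham AL and from 11.38 to 11.58 in BWm. Their median difference was -0.44 for RYGB against BWm, with 3 of 10 lower (limma, Benjamini-Hochberg adjusted p under 0.05). Of all genes, 6.36% were past the threshold there. In BWm against Sham AL the 10 ran from 0.02 (Kdr) to 0.75 (Bmp2), and of these Bmp2 was past the threshold. The summed level of 9 vascular endothelial markers ran from 10.25 to 10.75 in RYGB, 10.5 to 10.99 in Sham AL and 10.58 to 10.80 in BWm, with 0 of 9 past the threshold in any comparison. Of 8 bile duct cell markers, 1 was higher in RYGB than in BWm, and their sums ran from 8.97 to 9.21 in RYGB, 8.84 to 9.03 in Sham AL and 8.77 to 8.98 in BWm. Of 10 red cell markers 3 were measured, and their sums ran from 6.51 to 6.80 in RYGB, 6.41 to 6.75 in Sham AL and 6.12 to 6.57 in BWm. The part of these cells in the Aqp1 values was not tested.

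Aqp4 spread widely within groups. RYGB livers ran from 4.26 to 5.03 with a median of 4.63, Sham AL livers read 4.74, 4.51, 4.68, 4.27 and 4.77, and BWm livers 4.35, 5.19, 5.20 and 4.49. Both the RYGB and the BWm livers fell into higher and lower readings, and the Sham AL range lay inside the range of RYGB. The 3 RYGB livers with animal numbers below 50 read 4.87 to 5.03, and the 3 with numbers above 50 read 4.26 to 4.40. RYGB minus Sham AL was 0.04 ± 0.18 (95% interval -0.34 to 0.42) and -0.04 without the Sham AL replicate 4 array. RYGB minus BWm was -0.17 ± 0.19 (-0.58 to 0.23), and BWm minus Sham AL was 0.21 ± 0.20 (-0.21 to 0.63), or 0.13 without that array. With animal number below or above 50 as a block, these differences were -0.095, -0.397 and 0.302 in the same order. Within the livers numbered above 50 RYGB minus BWm was -0.469 and RYGB minus Sham AL was -0.22, so the RYGB differences of Aqp4 moved with the animal numbers. The part of what those numbers stand for was not tested.

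Aqp11, the intracellular member, was higher on average in BWm than in Sham AL, with overlap. BWm livers read 8.37, 8.46, 8.57 and 8.64, and Sham AL livers 8.44, 8.20, 8.14, 7.87 and 8.10. Of the BWm livers, 3 of 4 were above all Sham AL livers, and the overlap came from Sham AL replicate 1. BWm minus Sham AL was 0.36 ± 0.14 (95% interval 0.07 to 0.64), or 0.29 without the Sham AL replicate 4 array, which had the lowest reading. With all arrays that difference was not past the threshold. RYGB livers ran from 7.96 to 8.57 with a median of 8.27 and overlapped both groups, with RYGB minus BWm at -0.25 ± 0.13 (-0.52 to 0.03) and RYGB minus Sham AL at 0.11 ± 0.12 (-0.15 to 0.37), or 0.04 without that array. With animal number as a block, RYGB minus BWm was -0.42 and BWm minus Sham AL was 0.43, and Aqp11 was past the threshold in both. Within the livers numbered above 50 they were -0.417 and 0.432. Of the RYGB livers, the 3 numbered below 50 read 8.26 to 8.57 and the 3 above 7.96 to 8.28.

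**Figure D2:**
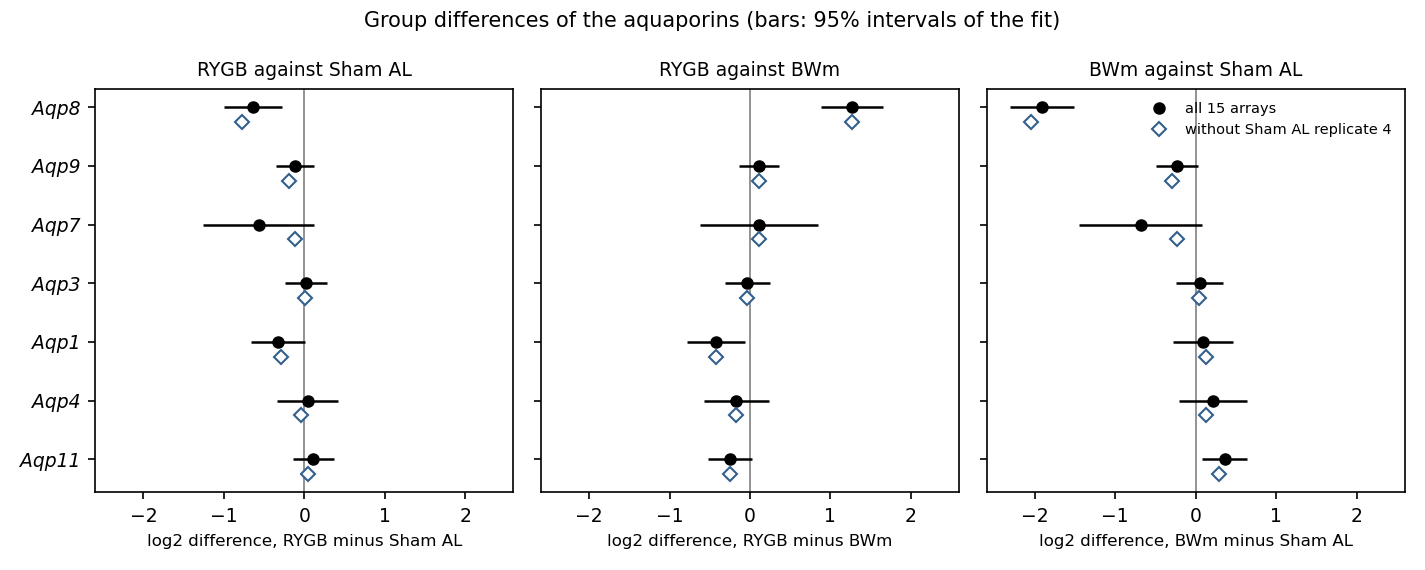
Log2 differences between groups (horizontal axis, log2 units) of the 7 members (vertical axis) in the 3 comparisons, with 95% intervals of the limma fit over 15 arrays as bars, and the differences without the Sham AL replicate 4 array as open diamonds without bars. Aqp8 lies at -0.64, 1.27 and -1.91 from left to right, and Aqp7 moves toward 0 in both comparisons with Sham AL when that array is left out.

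Counted over the family, 0 of 7 members were past the threshold (limma, Benjamini-Hochberg adjusted p under 0.05) for RYGB against Sham AL, where 1.38% of all genes were. For RYGB against BWm it was 1 of 7, Aqp8, against 6.36% of all genes, and for BWm against Sham AL again 1 of 7, Aqp8, against 2.84% of all genes. Arrays of the groups did not overlap for 0, 1 and 1 of the 7 in the same order, against 2.39%, 7.61% and 6.85% of all genes. Since the members were selected on these differences, nothing is read from the counts. The median difference of the 7 was -0.12, -0.03 and 0.05, against -0.003, 0.001 and -0.015 over all genes. Without the Sham AL replicate 4 array, Aqp8 was past the threshold for RYGB against Sham AL too.

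Within groups, the members did not vary as one. Correlations of their deviations from the group means ran from -0.54 (Aqp7 with Aqp8) to 0.58 (Aqp4 with Aqp11) over the 15 arrays. Without the Sham AL replicate 4 array the value for Aqp7 with Aqp8 was -0.07, and the range ran from -0.60 (Aqp4 with Aqp8, -0.29 over all arrays) to 0.52 (Aqp4 with Aqp11). Aqp8 with Aqp9 was 0.35 with that array and 0.09 without it, and Aqp8 with Aqp3 was 0.44 and 0.51. These are descriptions of 15 arrays that share processing, with no test.

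The other measured aquaporins, Mip (the lens aquaporin), Aqp2, Aqp5, Aqp6 and Aqp12, had 0 of 5 past the threshold in each comparison. Their differences ran from -0.10 to 0.08 for RYGB against Sham AL, from -0.12 to 0.34 for RYGB against BWm and from -0.35 to 0.04 for BWm against Sham AL. The largest belonged to Aqp12, an intracellular aquaporin of pancreatic acinar cells, which was 3.35 ± 0.22 in BWm (SD, n = 4) against 3.70 ± 0.19 in Sham AL (SD, n = 5), with no overlap of arrays and a limma, Benjamini-Hochberg adjusted p of 0.299. The summed level of 8 pancreatic acinar markers ran from 6.08 to 6.41 in BWm and from 6.28 to 6.48 in Sham AL, with 0 of 8 past the threshold, and their part in the Aqp12 value was not tested.

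Genes that act beside the aquaporins were described from lists of partners, 68 genes in all. Of these, 1 fell in RYGB against Sham AL (1.47%), 2 rose and 10 fell in RYGB against BWm (17.6%), and 5 rose and 3 fell in BWm against Sham AL (11.8%), against 1.38%, 6.36% and 2.84% of all genes. Their median log2 difference was -0.02, -0.10 and 0.07 in the same order. The lists were not independent of earlier results of these data, so these counts describe them only. The same holds for the counts of single lists below, which stand beside the same shares of all genes.

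Among 12 measured genes of glycerol release and use, which supply and consume what AQP7 and AQP9 carry, 0 changed in RYGB against Sham AL. The one with the smallest p there was Mgll, the monoglyceride lipase that frees glycerol, at -0.47 ± 0.16 (limma, Benjamini-Hochberg adjusted p = 0.178). In RYGB against BWm 1 rose and 3 fell. G6pc, the glucose-6-phosphatase that releases free glucose, fell by 1.70 ± 0.39 on the log2 scale (limma, Benjamini-Hochberg adjusted p = 0.0116), and its RYGB values ran from 8.07 to 10.74 while BWm ran from 11.10 to 11.65. The 3 RYGB livers with animal numbers below 50 read 10.23 to 10.74 for G6pc and the 3 above 50 read 8.07 to 9.4. With animal number as a block the difference was -2.33 (limma, Benjamini-Hochberg adjusted p = 0.000173). Slc37a4, which carries glucose-6-phosphate into the endoplasmic reticulum for that step, fell by 0.57 ± 0.13 (limma, Benjamini-Hochberg adjusted p = 0.00814). Pck1, the cytosolic PEP carboxykinase of glucose and glycerol synthesis, fell by 0.50 ± 0.12 (limma, Benjamini-Hochberg adjusted p = 0.0123), a call that was lost without BWm replicate 1 (adjusted p = 0.053). Tkfc, a triose kinase, rose by 0.41 ± 0.11 (limma, Benjamini-Hochberg adjusted p = 0.0357). That call was lost when any of 8 arrays was left out, RYGB replicates 2, 4, 5 and 6 and BWm replicates 1 to 4, with an adjusted p of up to 0.135.

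In BWm against Sham AL, 2 of the 12 glycerol genes rose and 2 fell. Pck1 rose by 0.59 ± 0.12 (limma, Benjamini-Hochberg adjusted p = 0.012) and Slc37a4 by 0.56 ± 0.13 (limma, Benjamini-Hochberg adjusted p = 0.0241). Gpd1, which links glycerol-3-phosphate to glycolysis, fell by 0.97 ± 0.22 (limma, Benjamini-Hochberg adjusted p = 0.0222), or by 0.78 without the Sham AL replicate 4 array, which read 10.94 against 9.62 to 10.17 on the other Sham AL arrays. Tkfc fell by 0.47 ± 0.12 (limma, Benjamini-Hochberg adjusted p = 0.0405). The Slc37a4 call was lost without Sham AL replicate 2 or 4 or BWm replicate 2 or 3 (adjusted p up to 0.0917), and the Gpd1 call without Sham AL replicate 2 or BWm replicate 1, 2 or 4 (up to 0.0699). The Tkfc call was lost without RYGB replicate 2, any of Sham AL replicates 1 to 4 or any BWm replicate (up to 0.155).

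Of 16 genes of ammonia and urea handling, the pathway that uses the ammonia AQP8 can pass into mitochondria, 0 changed in RYGB against Sham AL, 1 fell in RYGB against BWm and 2 rose in BWm against Sham AL. Asl, the argininosuccinate lyase of the urea cycle, was 10.85 ± 0.11 in BWm (SD, n = 4), 10.18 ± 0.32 in RYGB (SD, n = 6) and 9.92 ± 0.17 in Sham AL (SD, n = 5). It fell by 0.67 ± 0.15 in RYGB against BWm (limma, Benjamini-Hochberg adjusted p = 0.0081) and rose by 0.94 ± 0.15 in BWm against Sham AL (limma, Benjamini-Hochberg adjusted p = 0.00246). Cps1, the mitochondrial enzyme that takes up ammonia in the first step of the cycle, rose by 0.44 ± 0.10 in BWm against Sham AL (limma, Benjamini-Hochberg adjusted p = 0.023), a call lost without Sham AL replicate 2 or 3 or BWm replicate 2 or 3 (adjusted p up to 0.0699). In RYGB against Sham AL it differed by 0.24 ± 0.09 (limma, Benjamini-Hochberg adjusted p = 0.24).

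Of 15 genes of canalicular bile secretion, the membrane where AQP8 carries water, 1 fell in RYGB against Sham AL, 2 fell in RYGB against BWm and 0 changed in BWm against Sham AL. Abcg5 and Abcg8, the 2 parts of the cholesterol exporter, fell in RYGB against BWm by 0.90 ± 0.22 and 0.94 ± 0.22 (limma, Benjamini-Hochberg adjusted p = 0.0164 and 0.0131). The Abcg8 call was lost without BWm replicate 4 (adjusted p = 0.057), and the Abcg5 call without BWm replicate 1 or 4 (up to 0.0653). Abcg2, another canalicular exporter, fell by 0.68 ± 0.16 in RYGB against Sham AL (limma, Benjamini-Hochberg adjusted p = 0.0442). That call was lost without any one of RYGB replicates 3 to 6, Sham AL replicates 1, 2, 3 or 5, or BWm replicates 1 or 4 (adjusted p up to 0.121). In BWm against Sham AL the smallest p belonged to Myo5b, a motor of canalicular membrane traffic, at -0.36 ± 0.11 (limma, Benjamini-Hochberg adjusted p = 0.0856).

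Of 9 genes of mitochondrial peroxide handling, 0 passed the threshold in any of the 3 comparisons. Prdx3, a mitochondrial peroxidase, differed by 0.40 ± 0.13 in RYGB against BWm (limma, Benjamini-Hochberg adjusted p = 0.0821), and was past the threshold without the Sham AL replicate 4 array (adjusted p = 0.0264) and with animal number as a block (0.0278). Nnt, which supplies mitochondrial NADPH, differed by 0.32 ± 0.11 in RYGB against Sham AL and by 0.41 ± 0.12 in BWm against Sham AL (limma, Benjamini-Hochberg adjusted p = 0.175 and 0.0709). Of 7 ion and solute partners of bile duct water flow, 0 passed the threshold in any comparison, with Sctr, the secretin receptor, at -0.33 ± 0.14 in RYGB against Sham AL and -0.27 ± 0.15 in RYGB against BWm. Slc10a2, the apical bile acid transporter, had the smallest p of that list in BWm against Sham AL, at -0.63 ± 0.24 (limma, Benjamini-Hochberg adjusted p = 0.18).

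Of 10 measured regulators of aquaporin genes, 0 changed in RYGB against Sham AL, 1 rose and 4 fell in RYGB against BWm, and 1 rose and 1 fell in BWm against Sham AL. Over all genes 1.38%, 6.36% and 2.84% were past the threshold in the same order. Pparg, the nuclear receptor of fat storage, which controls Aqp7 in fat, had the same order of group means as Aqp8, with 7.37 ± 0.36 in Sham AL (SD, n = 5), 6.79 ± 0.17 in RYGB (SD, n = 6) and 5.98 ± 0.40 in BWm (SD, n = 4). It rose by 0.81 ± 0.18 in RYGB against BWm and fell by 1.39 ± 0.19 in BWm against Sham AL (limma, Benjamini-Hochberg adjusted p = 0.00935 and 0.00103), or by 1.32 without the Sham AL replicate 4 array, and differed by -0.58 ± 0.17 in RYGB against Sham AL (limma, Benjamini-Hochberg adjusted p = 0.114). Pparg is also a gene of fat cells. Markers of these cells were higher in Sham AL as means, though unevenly between genes as given above. The part of fat cells in the Pparg values was not tested. Foxo1, a forkhead factor that insulin signalling keeps out of the nucleus, ran the other way between BWm and the rest. It was 8.55 ± 0.22 in BWm (SD, n = 4) against 7.75 ± 0.18 in RYGB (SD, n = 6) and 7.93 ± 0.13 in Sham AL (SD, n = 5).

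Foxo1 fell by 0.81 ± 0.12 in RYGB against BWm (limma, Benjamini-Hochberg adjusted p = 0.000438) and rose by 0.62 ± 0.12 in BWm against Sham AL (limma, Benjamini-Hochberg adjusted p = 0.0108), where the call was lost without BWm replicate 3 (adjusted p = 0.0509). Ppara, the nuclear receptor of fasting metabolism, fell by 0.57 ± 0.12 in RYGB against BWm (limma, Benjamini-Hochberg adjusted p = 0.00834). Foxa2, a liver forkhead factor, fell by 0.74 ± 0.22 (limma, Benjamini-Hochberg adjusted p = 0.0485), a call that was lost when any of 11 arrays was left out, all 6 RYGB replicates, Sham AL replicates 2, 3 and 5 and BWm replicates 2 and 4 (adjusted p up to 0.192), and with animal number as a block (0.0506). The remaining fall was that of Insr, the insulin receptor, by 0.36 ± 0.10 (limma, Benjamini-Hochberg adjusted p = 0.0352), which was named after its value was seen. That call was lost without RYGB replicate 2, 3 or 4 or any BWm replicate (adjusted p up to 0.0912), and with animal number as a block (0.0932).

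**Figure D3:**
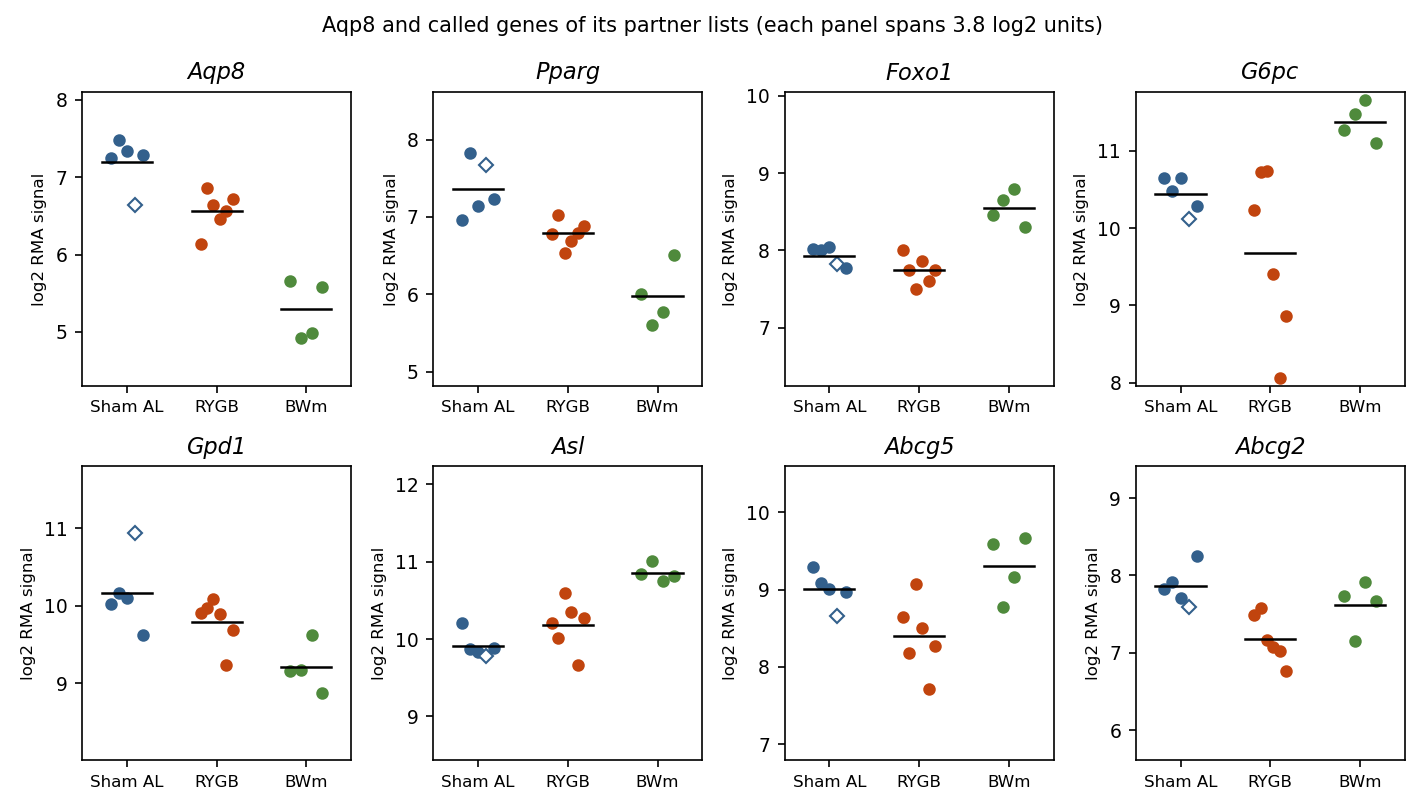
Log2 RMA signal (vertical axis) of Aqp8 and of 7 partner genes past the threshold in at least 1 comparison, by group (horizontal axis), 1 point per mouse, with bars at group means and the Sham AL replicate 4 array as an open diamond. Pparg follows the order of Aqp8 over the groups, Foxo1 and Asl are highest in BWm, and G6pc spreads from 8.07 to 10.74 among RYGB livers.

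The genes whose signal ran most like Aqp8 over the 15 arrays were found among 9162 genes with a mean log2 level of at least 5. By Pearson's r they were Aldh1a7 (r = 0.94), Cmas (0.93), Lonp2 (0.93), Focad (0.91) and Sh3bgrl2 (0.90). Aldh1a7 is an aldehyde dehydrogenase, Cmas makes CMP-sialic acid and Lonp2 is the peroxisomal Lon protease. Group means of Aldh1a7 were 9.86 in Sham AL, 9.57 in RYGB and 8.96 in BWm, and those of Lonp2 were 9.76, 9.55 and 9.18. The most opposed genes were Irf2bp2 (r = -0.93), Sorbs3 (-0.93), Fmo2 (-0.92), Tango2 (-0.91) and Tmem131 (-0.91). Fmo2, a flavin monooxygenase, had group means of 6.99 in Sham AL, 7.44 in RYGB and 9.00 in BWm, so BWm was above Sham AL by 2.02 log2 units.

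The arrays fall into the groups of the study, so these r values largely restate differences between groups, and no test is given. After each group's mean was subtracted, r with Aqp8 was 0.76 for Aldh1a7, 0.74 for Focad, 0.66 for Cmas, 0.64 for Sh3bgrl2 and 0.54 for Lonp2. Among the opposed genes it ran from -0.70 for Irf2bp2 to -0.54 for Tmem131. Without the Sham AL replicate 4 array these r values were 0.78 for Aldh1a7, 0.69 for Focad, 0.41 for Cmas, 0.46 for Sh3bgrl2 and 0.38 for Lonp2, and -0.73 to -0.56 for the opposed genes. All 10 genes were chosen on these arrays, and the values within groups come from the same arrays.

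**Figure D4:**
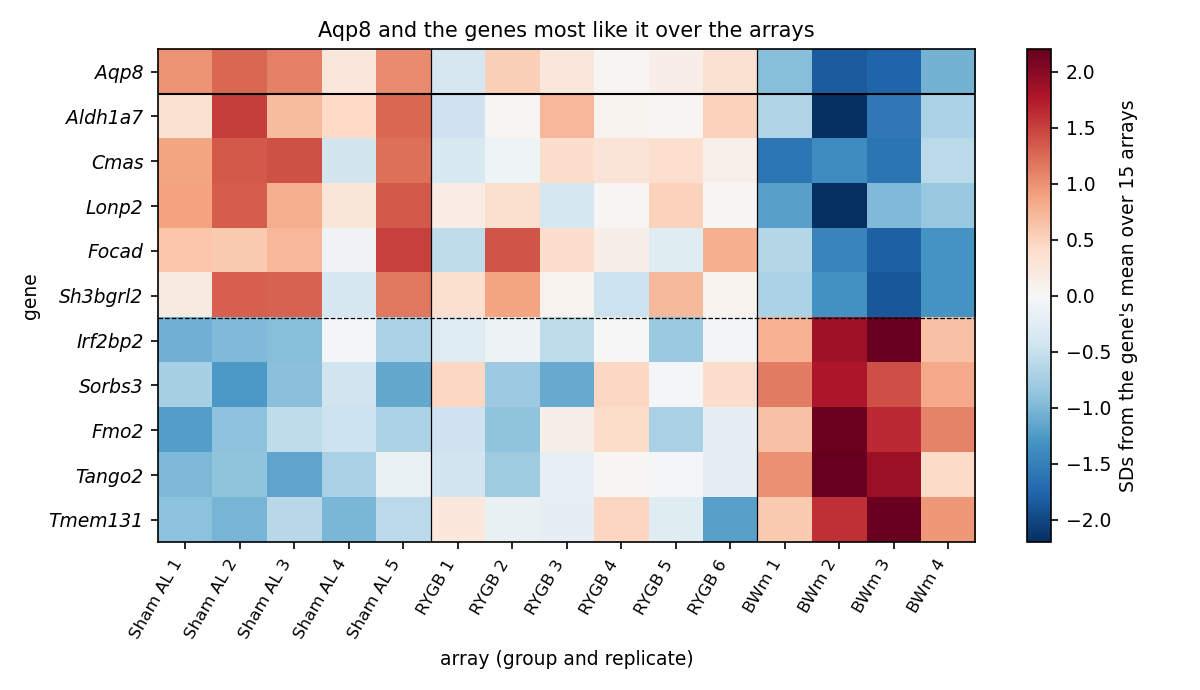
Level of Aqp8 and of the 5 most like and 5 most opposed genes (vertical axis) on each of the 15 arrays (horizontal axis), in standard deviations from the gene's mean over all arrays (colour scale). The 5 like genes are lowest on the BWm arrays and the 5 opposed genes highest there, and on the Sham AL replicate 4 array Aqp8 is nearer to its mean than on the other Sham AL arrays.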

How the data were processed

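RNA from 15 mouse livers was hybridised to 15 GeneChip Mouse Gene 2.0 ST arrays. The deposited values are log2 signals made by the authors with the robust multi-array average over all arrays in Affymetrix Expression Console 1.4.1.46, per the design text and the submitters' processing notes. The scanner files were not used here, and the annotation's genome build is not given in the sources used here.

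Of 41345 transcript clusters, 23521 had 1 gene symbol, 1814 had several and 16010 had none; 23328 of the former matched mouse RefSeq by Entrez number. For 1082 genes with several clusters the one with the highest mean was used, which left 22180 genes. No filter on level was applied. The 3 comparisons were contrasts of 1 limma 3.58.1 fit (R 4.3.3) over all arrays, two-sided, with 12 residual and 5.85 prior degrees of freedom and Benjamini-Hochberg adjustment over all genes at 0.05. The fit was tested on simulated data. Tables and figures used Python 3.11.15, pandas 2.3.3 and matplotlib 3.10.9.

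The members and lists were chosen with earlier results of these data known. Named genes were all aquaporins, up to 4 called genes with the largest difference per partner list and comparison (otherwise the 1 with the smallest p), and the 5 highest and 5 lowest Pearson r with Aqp8 among genes with a mean of at least 5, without predicted genes and olfactory and vomeronasal receptors. Of 225 listed genes, 200 were measured. Marker sums are log2 of the summed linear signals. Alternatives were a level filter, quantile normalization, subtraction of array medians, mean of clusters, other priors, array weights, fits on the compared groups, replicate and animal number blocks, leaving out each array, and the one-way ANOVA that the methods name.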

Additional observations from a re-analysis of the deposited data

Results flagged for a closer look

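A group's highest or lowest array stood apart from the others, by the gap over the range, in 6 of 36 sets of 1 gene in 1 group, over all 12 aquaporins. Chance flags about 1 in 20 such groups. Both of the first values come from the Sham AL replicate 4 array, which carried transcripts of other tissues. On it Aqp7 read 6.70, against 4.13 to 4.70 on the other Sham AL arrays. Aqp8 read 6.65 there, against 7.25 to 7.48.

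Aqp9 read 9.10 on BWm replicate 2, against 9.44 to 9.5 on the other BWm arrays. Aqp5 read 4.64 on Sham AL replicate 1, against 4.99 to 5.07. Aqp12 read 4.30 on RYGB replicate 2, against 3.47 to 3.72, and 3.02 on BWm replicate 1, against 3.44 to 3.47.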

How the results depend on the processing

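The Aqp8 differences kept their direction in all 24 alternatives of each comparison, from -0.78 to -0.55 for RYGB against Sham AL, 1.15 to 1.40 for RYGB against BWm and -2.05 to -1.79 for BWm against Sham AL. The last 2 were past the threshold in 24 of 24 alternatives, and the first in 3 of 24. Members past the threshold for RYGB against Sham AL were 0, or 1 with a mean level of at least 5, with array weights and under the methods' one-way ANOVA at an unadjusted p and 1.5-fold, and 0 to 1 when leaving out 1 array (1 without Sham AL replicate 4). With a block for animal number, members past it were 3 for RYGB against BWm (Aqp1 and Aqp11 besides Aqp8) and 2 for BWm against Sham AL (Aqp11 besides Aqp8). Partner genes past the threshold for RYGB against Sham AL (1) were 0 with subtraction of array medians, 0 with the replicate block, 0 under the ANOVA with Benjamini-Hochberg adjustment, 2 with the animal number block, 2 under the unadjusted ANOVA and 0 to 1 when leaving out 1 array. For RYGB against BWm (12) they were 7 with the replicate block, 2 under the adjusted ANOVA and 7 (without BWm replicate 4) to 15 (without Sham AL replicate 4) when leaving out 1 array. For BWm against Sham AL (8) they were 4 with the replicate block, 2 under the adjusted ANOVA and 4 (without Sham AL replicate 2, BWm replicate 2 or BWm replicate 3) to 9. The cause was not tested. Counts over all genes, 306, 1411 and 629, were 174, 903 and 325 with the replicate block, 54, 833 and 90 under the adjusted ANOVA, and 446, 1749 and 1046 with the level filter, which tests fewer genes. For RYGB against Sham AL leaving out RYGB replicate 4 gave 176, RYGB replicate 6 gave 200 and Sham AL replicate 2 gave 144; for BWm against Sham AL, 284 without BWm replicate 2 or 3 and 382 without Sham AL replicate 2. For RYGB against BWm it was 930 without BWm replicate 3. Under the replicate block these calls of named genes were lost: Tkfc, Abcg8, Abcg5, Foxa2, Ppara and Insr for RYGB against BWm, Slc37a4, Tkfc, Cps1 and Foxo1 for BWm against Sham AL, and Abcg2 for RYGB against Sham AL, with adjusted p from 0.0541 to 0.16. Fits on only the compared groups lost Tkfc and Insr for RYGB against BWm. They also lost Gpd1 and Tkfc for BWm against Sham AL. Subtraction of array medians lost the Abcg2 and Foxa2 calls. The Foxa2 call was also lost with a trended and robust prior and with array weights. Deviations from the group means of same-numbered arrays correlated at -0.14 to 0.25, -0.21 to 0.14 and -0.18 to 0.27 in the 3 comparisons, and 2 of 5, 1 of 4 and 1 of 4 arrays correlated best with their own number. So few arrays cannot decide whether the labels' replicate numbers pair them. Members near 0 took the other sign in some alternatives: Aqp3 in 5, 2 and 2 of 23, Aqp4 in 5 for RYGB against Sham AL, Aqp7 in 1 for RYGB against BWm and Aqp1 in 1 for BWm against Sham AL. The mean of a gene's clusters cannot alter the members, which have 1 cluster each. Signal over background was not measured, which limits what can be said of dim genes such as Aqp3.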
